A study of Homo sapiens with 10 samples.

Results

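MET, PDGFRA and FGFR1 encode receptor tyrosine kinases, and the histone mark H3K27ac was followed over the chromatin around each of them. Members were the rows of a count table on hg19 whose starts fell in chr7:116280000-116460000 for MET, chr4:55050000-55200000 for PDGFRA or chr8:38240000-38350000 for FGFR1. These position rules found 15 of the 42067 windows in the table, of which 5 lay in the MET range, 4 in the PDGFRA range and 6 in the FGFR1 range. The windows are numbered within each range by rising coordinate, and each spans 400 bases. The cells were Rh30, an established line of alveolar rhabdomyosarcoma (a childhood muscle-like tumour), in which the PAX3-FOXO1 fusion carried an FKBP degron tag. The treatments were 500 nM of dTAG47, a ligand that directs FKBP-tagged protein to the proteasome, for 2 h, 4 h and 24 h, and DMSO, the solvent, was the control. Chromatin immunoprecipitation with an antibody to H3K27ac followed by sequencing (ChIP-seq) gave 2 libraries per group. All groups share the tagged fusion, and 1 DMSO group served every time, so time in culture and time of treatment cannot be told apart. Depletion of the fusion was not measured in these counts.

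Receptor tyrosine kinases sit in the plasma membrane, bind a growth factor outside the cell and phosphorylate tyrosines inside it, which feeds the MAPK and PI3K pathways. MET is the receptor for hepatocyte growth factor and is required for the migration of muscle precursors in the embryo, where PAX3 acts upstream of it in the mouse. PDGFRA is the alpha receptor for platelet-derived growth factors and is a marker of mesenchymal cells. FGFR1 is a receptor for fibroblast growth factors and is expressed in myoblasts. H3K27ac marks nucleosomes at active promoters and enhancers, and PAX3-FOXO1 is a transcription factor known to bind enhancers in this tumour type.

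The promoters of MET and PDGFRA are shown because promoters are where H3K27ac is commonly found. Both are RefSeq sequences of GRCh38.p14 on the plus strand, and each holds the 250 bases before an annotated start. No FGFR1 sequence of that length was among the promoters searched, so none is shown. Capitals mark the GC box GGGCGG and the E-box CAGCTG, searched on both strands together with the AP-1 motif TGACTCA and the forkhead core TGTTTAC.
MET, chr7:116671946-116672195: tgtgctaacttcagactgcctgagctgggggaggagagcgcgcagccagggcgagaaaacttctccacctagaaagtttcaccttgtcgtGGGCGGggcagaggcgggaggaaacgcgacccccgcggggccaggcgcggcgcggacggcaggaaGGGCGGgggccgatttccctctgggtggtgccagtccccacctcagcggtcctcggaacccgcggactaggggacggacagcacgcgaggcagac
PDGFRA, second of its RefSeq starts, chr4:54233710-54233959: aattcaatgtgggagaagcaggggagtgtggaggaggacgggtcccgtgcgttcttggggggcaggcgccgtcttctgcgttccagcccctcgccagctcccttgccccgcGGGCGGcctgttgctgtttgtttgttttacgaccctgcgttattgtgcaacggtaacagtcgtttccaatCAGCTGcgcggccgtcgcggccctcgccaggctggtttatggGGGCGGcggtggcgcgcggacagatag
The MET promoter is 68.4% G and C with 24 CpG dinucleotides, and it holds 2 GC boxes. The PDGFRA promoter printed here is 64.0% G and C with 25 CpG, and it holds 2 GC boxes and 1 E-box. The first PDGFRA start, at lower coordinates, has 46.8% G and C, 8 CpG and none of the motifs. Of 35116 promoters of the same length, 42.6% hold the GC box, 14% the E-box, 4.2% the AP-1 motif and 3.0% the forkhead core. The counted windows are on hg19, so they could not be placed against these promoters, and which windows are promoters, introns or intergenic is not known here.

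On GRCh38.p14 the gene bodies are shorter than the ranges searched, so a window can lie outside the gene it is grouped under. Neighbours were searched only among protein-coding genes that do not overlap the receptor gene. The nearest of these to MET on either side are CAV1, at 111.011 kb, and CAPZA2, at 64.21 kb. By the same rule, PDGFRA lies 126.795 kb from GSX2 and 359.712 kb from KIT. FGFR1 lies 1.616 kb from LETM2 and 259.947 kb from TACC1. The lowest FGFR1 windows may therefore belong to a neighbour, and which gene a window acts on was not measured.

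Counts in peaks ranged between 3540104 and 5001652 per library, and the median window held 48 to 69 counts. The members held between 21 and 319 counts per library. All 15 passed the filter on low counts, as did 41791 windows in all. Levels are given as CPM, the counts of a window scaled to one common total in peaks by TMM, which sets aside any change common to all windows. Calls are from edgeR's quasi-likelihood test with Benjamini-Hochberg adjustment over all tested windows, at an adjusted p under 0.05. Nothing states that the libraries of a group came from separate cultures, so p-values measure the spread between libraries, which may be technical.

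The MET range held the strongest of the 15 windows, and most of the others were of low to middling height. MET window 1 averaged 64.7 CPM over all libraries, at percentile 92.5 of all tested windows, and took 56.4% of the mean signal in its range. FGFR1 window 6 followed at 35.5 CPM (percentile 79.1) and FGFR1 window 2 at 32.4 CPM (percentile 76.7). PDGFRA had no window above 21.9 CPM, the mean of its window 3, which was closely followed by window 4 at 21.2 CPM. The lowest member was FGFR1 window 5 at 7.36 CPM (percentile 24.3). All windows have one width, so these levels can be set beside each other, although gene copy number was not measured.

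**Figure D1:**
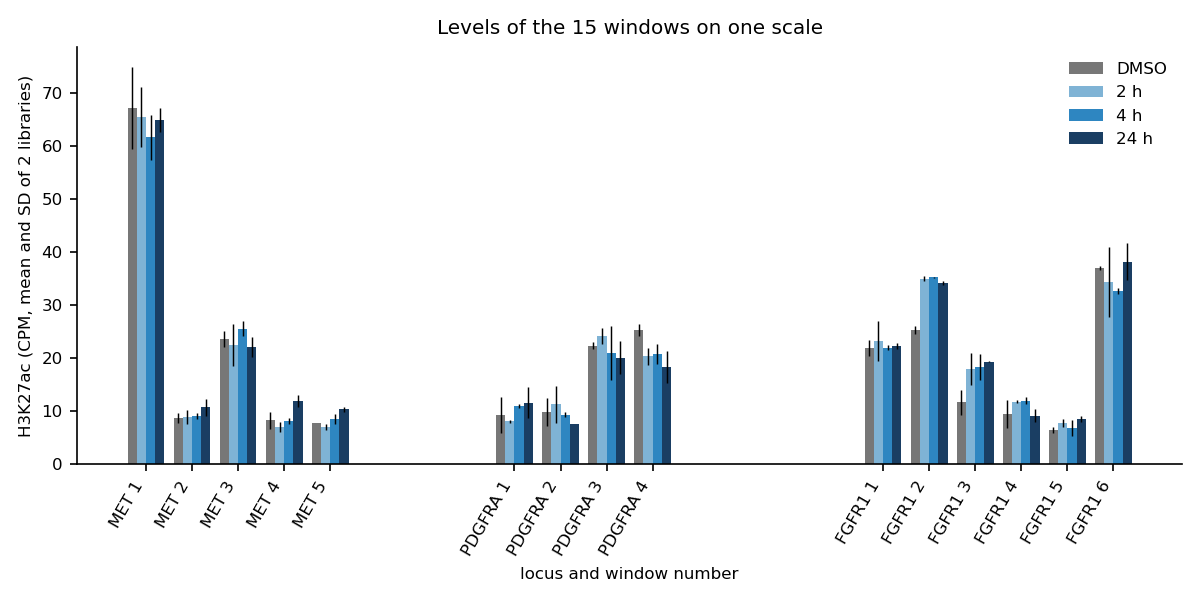
H3K27ac level (CPM after TMM scaling, y axis) at each of the 15 windows (x axis) in DMSO and after 2 h, 4 h and 24 h of dTAG47; bars are means and lines SDs of 2 libraries. MET window 1 stands above all others in every group, and PDGFRA has no bar above 26 CPM.

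Seen over the whole of each range, H3K27ac was higher around FGFR1 at every time after dTAG47, and differed less steadily around MET and PDGFRA. The 6 FGFR1 windows together held 129.6 and 130.1 CPM at 2 h, 125.7 and 128.1 CPM at 4 h and 133.3 and 129.7 CPM at 24 h, against 110.5 and 113.1 CPM in DMSO. Every treated library lay above both DMSO libraries. The log2 ratio of means to DMSO was 0.22, 0.18 and 0.23 at 2 h, 4 h and 24 h. The 5 MET windows together averaged 110.9 ± 8.62 CPM at 2 h, 112.8 ± 6.46 at 4 h and 119.9 ± 3.18 at 24 h, against 115.3 ± 3.58 in DMSO (SD, n = 2 each). The 4 PDGFRA windows together averaged 63.8 ± 3.94, 61.9 ± 3.02 and 57.5 ± 3.22 CPM at the same times, against 66.7 ± 6.54 CPM in DMSO (SD, n = 2 each). The log2 ratio of means to DMSO was -0.06, -0.03 and 0.06 for MET and -0.06, -0.11 and -0.21 for PDGFRA. With 1 library left out, the PDGFRA value ranged from -0.16 to 0.040 at 2 h and from -0.20 to -0.0027 at 4 h. At 24 h it ranged from -0.31 (without DMSO library A) to -0.11 (without DMSO library B). The MET value ranged from -0.14 to 0.020 and from -0.091 to 0.026 at 2 h and 4 h, so its sign was not fixed, while the FGFR1 values stayed between 0.17 and 0.25. The MET sums overlapped those of DMSO at each time, while both PDGFRA sums at 24 h lay below both in DMSO. No test was run on these sums, and with 2 against 2 libraries the smallest two-sided exact permutation p is 0.33.

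Few single windows were called, and the share of all windows called was itself smaller at 2 h than at 24 h. At 2 h, 0 of 15 windows were called against DMSO by edgeR, when 0.194% of all windows were called higher and 1.03% lower. An unadjusted p under 0.05 was reached by 2 higher and 1 lower of the 15, beside 4.71% and 6.42% of all windows, and DESeq2 also called 0. At 4 h, 1 member was called higher and 0 lower, beside 0.567% and 1.67% of all windows. An unadjusted p under 0.05 was then reached by 2 higher and 0 lower, beside 5.88% and 7.18%. At 24 h, 2 members were called higher and 1 lower, beside 3.46% and 4.88% of all windows, and 3 were higher and 1 lower without adjustment, beside 9.83% and 11.2%. DESeq2 called 0 members at 4 h and at 24 h as well. The median log2 change of the 15 members was 0.05, 0.07 and 0.05 at the 3 times, and that of all windows was 0.00 at each. All of these comparisons share the DMSO libraries.

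**Figure D2:**
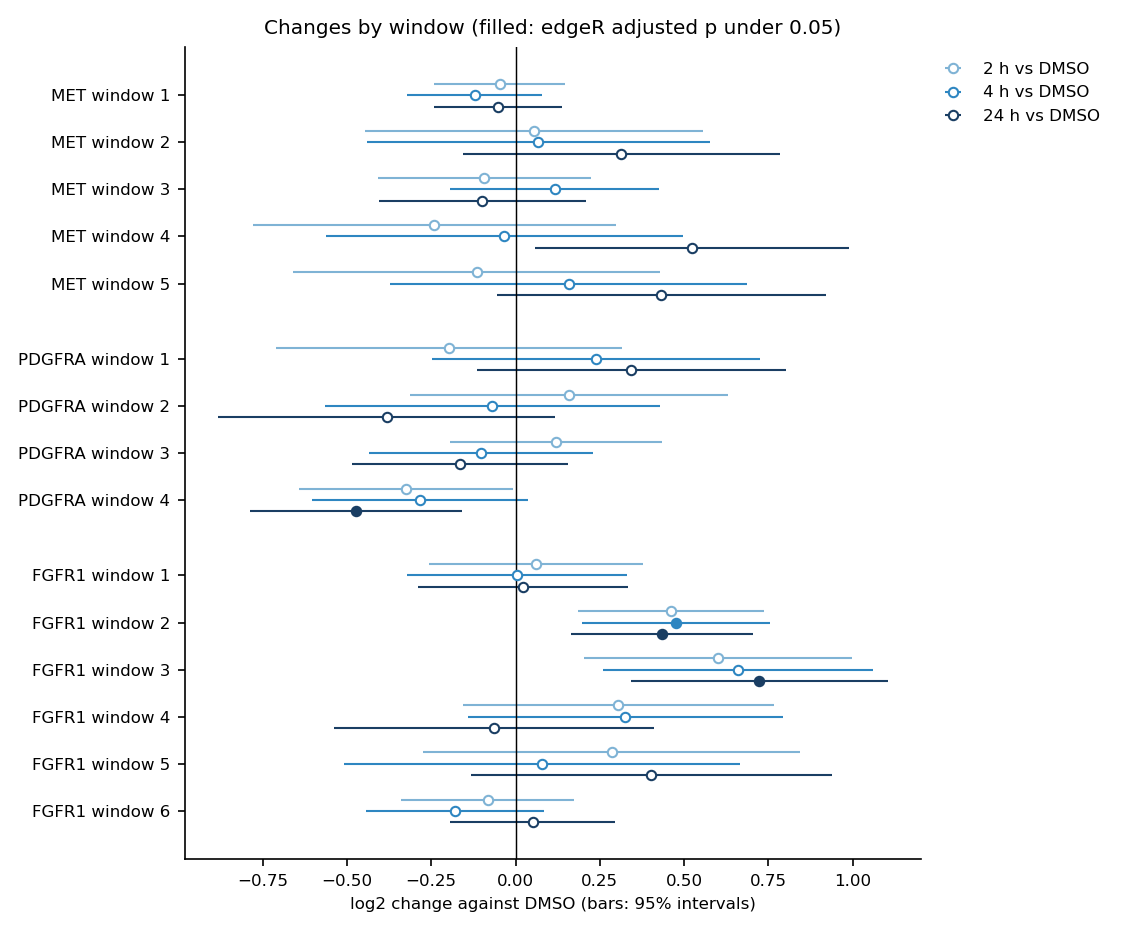
Log2 change against DMSO (x axis) for each of the 15 windows (rows) at 2 h, 4 h and 24 h of dTAG47, with lines for the 95% interval; filled points have an edgeR adjusted p under 0.05. The filled points are FGFR1 window 2 at 4 h and 24 h, FGFR1 window 3 at 24 h and PDGFRA window 4 at 24 h.

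The FGFR1 difference was largest in a pair of neighbouring windows, 1.004 kb apart, and its size at 2 h was close to that at the later times. FGFR1 window 2, chr8:38287222-38287622, held 35.2 and 34.6 CPM at 2 h, 35.2 and 35.2 CPM at 4 h and 34.5 and 33.9 CPM at 24 h, against 24.8 and 25.9 CPM in DMSO. All 6 treated libraries lay well above both DMSO libraries, and the 3 treated groups lay close together. Its log2 change was 0.46 (SE 0.14, adjusted p 0.0755) at 2 h, 0.48 (SE 0.14, adjusted p 0.0474) at 4 h and 0.43 (SE 0.14, adjusted p 0.0292) at 24 h by edgeR. The call was therefore made at 4 h and 24 h and missed at 2 h, while the difference of 24 h from 2 h was -0.03 (SE 0.12, adjusted p 0.943). Both calls were lost when any 1 of the libraries compared was left out, which leaves a single library in that group. In those fits the log2 change ranged from 0.44 to 0.51 at 4 h and from 0.40 to 0.47 at 24 h. The SE there was 0.16 to 0.18.

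FGFR1 window 3, chr8:38288226-38288626, followed the same course at a lower level. It held 20.1 and 15.8 CPM at 2 h, 16.6 and 20.1 CPM at 4 h and 19.2 and 19.3 CPM at 24 h, against 9.96 and 13.4 CPM in DMSO. Again no treated library reached down to a DMSO library, although the libraries within 2 h, 4 h and DMSO spread widely. The log2 change was 0.60 (SE 0.20, adjusted p 0.136) at 2 h, 0.66 (SE 0.20, adjusted p 0.0595) at 4 h and 0.72 (SE 0.19, adjusted p 0.00695) at 24 h by edgeR. This was the largest change among the 15 members at each time. It stood at percentile 98.1 of all windows at 2 h and 96.9 at 24 h. The change of window 2 stood at percentile 95.5 at 2 h and 89.4 at 24 h. The 24 h call was lost without DMSO library A (log2 change 0.53) or 24 h library A (log2 change 0.73).

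The other FGFR1 windows gave no call. Window 6, chr8:38325727-38326127, the strongest of the 6, held 29.7 and 39.0 CPM at 2 h, 32.2 and 33.0 CPM at 4 h and 40.6 and 35.7 CPM at 24 h, against 36.7 and 37.2 CPM in DMSO. Its log2 change of -0.08, -0.18 and 0.05 at the 3 times had intervals from -0.34 to 0.17, from -0.44 to 0.08 and from -0.19 to 0.30, so a rise of the size seen at window 2 lay outside them. Window 1 varied between 20.5 and 25.9 CPM over all libraries with log2 changes of 0.06, 0.00 and 0.02. Windows 4 and 5 were low, at 10.6 and 7.36 CPM on average, and their log2 intervals at 2 h and 4 h all held 0, with upper ends between 0.67 and 0.85. At 2 h, 4 h and 24 h the log2 change was 0.30, 0.33 and -0.06 for window 4. For window 5 it was 0.29, 0.08 and 0.40. The intervals at 24 h, from -0.54 to 0.41 and from -0.13 to 0.94, held 0 as well. The row just below the lower bound of the FGFR1 range, 0.577 kb outside it, averaged 54.0 CPM and had a log2 change of -0.04 at 2 h and -0.06 at 24 h. The nearest row beyond the upper bound, 35.656 kb away, averaged 5.98 CPM and had changes of 0.20 and 0.07.

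**Figure D3:**
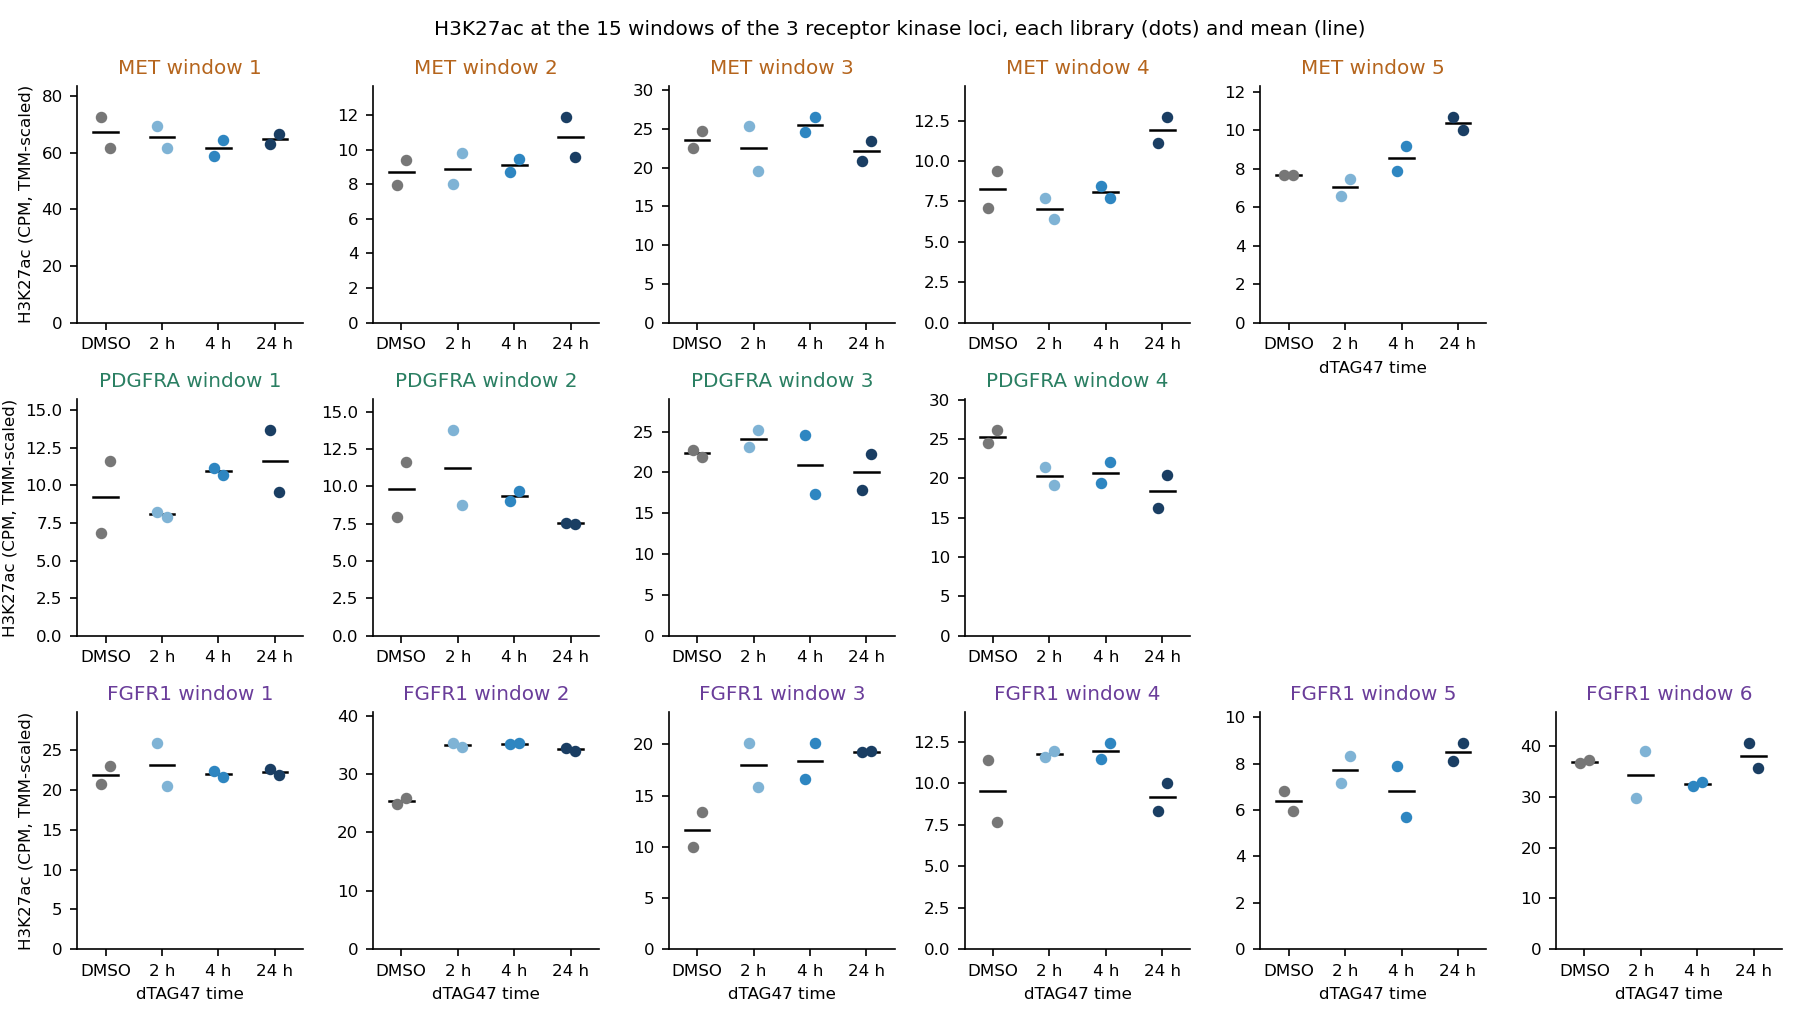
H3K27ac (CPM after TMM scaling, y axis, each panel on its own scale from 0) at each of the 15 windows by group (x axis); dots are single libraries and lines the means of 2. In FGFR1 windows 2 and 3 all 6 treated libraries lie above both DMSO libraries, and in PDGFRA window 4 all 6 lie below them.

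Around PDGFRA the one call was a loss at 24 h in the window with the highest coordinate. PDGFRA window 4, chr4:55099211-55099611, held 21.5 and 19.2 CPM at 2 h, 19.4 and 22.1 CPM at 4 h and 16.2 and 20.5 CPM at 24 h, against 24.5 and 26.1 CPM in DMSO. All 6 treated libraries lay below both DMSO libraries, but the 2 libraries at 24 h stood further apart than those of any other group. The log2 change was -0.32 (SE 0.16, adjusted p 0.433) at 2 h, -0.28 (SE 0.16, adjusted p 0.464) at 4 h and -0.47 (SE 0.16, adjusted p 0.0455) at 24 h by edgeR, and the difference of 24 h from 2 h was -0.15 (SE 0.16, adjusted p 0.7). The call was lost without either DMSO library or 24 h library A (adjusted p between 0.131 and 0.454), and with counts scaled by their totals alone (adjusted p 0.06). The 24 h log2 change was -0.31 without 24 h library A and -0.64 without 24 h library B.

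PDGFRA window 3, chr4:55093889-55094289, the strongest of the 4, held 23.1 and 25.2 CPM at 2 h, 24.5 and 17.4 CPM at 4 h and 17.8 and 22.3 CPM at 24 h, against 22.8 and 21.9 CPM in DMSO. Its libraries overlapped those of DMSO at 4 h and 24 h, and its log2 changes were 0.12, -0.10 and -0.16. Window 2 held 7.53 and 7.51 CPM at 24 h, against 7.97 and 11.6 CPM in DMSO, with a log2 change of -0.38 (SE 0.25, adjusted p 0.413). Window 1 differed in sign from its neighbours, with a log2 change of 0.34 at 24 h (SE 0.23, adjusted p 0.428), and its DMSO libraries of 6.83 and 11.6 CPM were far apart. The rows nearest outside the PDGFRA range lay 84.19 kb below and 324.404 kb above it and had log2 changes of 0.05 and 0.25 at 24 h.

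At MET the strongest window showed no detectable change. MET window 1, chr7:116311980-116312380, held 69.3 and 61.4 CPM at 2 h, 58.6 and 64.5 CPM at 4 h and 63.2 and 66.4 CPM at 24 h, against 72.6 and 61.7 CPM in DMSO. The groups overlapped at all times. The log2 change against DMSO, with its 95% interval, was -0.05 (-0.24 to 0.15), -0.12 (-0.32 to 0.08) and -0.05 (-0.24 to 0.14) at the 3 times. Each SE was 0.10, the smallest of the 15 windows. Window 3, at 23.4 CPM on average, also moved little, with log2 changes of -0.09, 0.12 and -0.10.

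The weak MET windows 4 and 5, at the high-coordinate end, had their highest levels at 24 h, and neither was called against DMSO. MET window 4, chr7:116442024-116442424, held 7.71 and 6.40 CPM at 2 h, 8.45 and 7.69 CPM at 4 h and 11.1 and 12.7 CPM at 24 h, against 7.12 and 9.38 CPM in DMSO. Only the 24 h libraries lay above both DMSO libraries. Against DMSO the log2 change was -0.24 (SE 0.27), -0.03 (SE 0.27) and 0.52 (SE 0.24) at 2 h, 4 h and 24 h, with an edgeR adjusted p of 0.174 at 24 h. Without 1 library the 24 h value ranged between 0.34 and 0.74. Against 2 h, the 24 h level was higher by 0.76 on the log2 scale (SE 0.24, adjusted p 0.0411). That call was lost when any 1 of the 4 libraries compared was left out (log2 change between 0.62 and 0.89). It was also lost with offsets that follow abundance (edgeR adjusted p 0.0508). MET window 5, which starts 0.715 kb further on, held 6.60 and 7.47 CPM at 2 h, 7.91 and 9.18 CPM at 4 h and 10.7 and 10.0 CPM at 24 h, against 7.69 and 7.67 CPM in DMSO. It was also highest at 24 h, and its log2 change from 2 h was 0.55 (SE 0.24, adjusted p 0.2). MET window 2 had a log2 change of 0.31 (SE 0.24, adjusted p 0.495) at 24 h. The nearest row below the MET range, 63.278 kb outside it, was lower at 24 h than in DMSO (log2 change -0.78, edgeR adjusted p 0.0161), while the nearest above, at 42.569 kb, had a change of -0.03.

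Direct comparisons of the treated times gave few calls. Between 4 h and 2 h edgeR called 0 members and 0% of all windows higher and 0% lower, and 0 members passed an unadjusted p under 0.05 in either direction, beside 3.3% higher and 3.62% lower. Between 24 h and 4 h it called 0 members, beside 0.438% of all windows higher and 0.68% lower, and an unadjusted p under 0.05 was reached by 1 higher and 0 lower, beside 6.36% and 7.1%. Between 24 h and 2 h it called 1 member higher, MET window 4, and 0 lower, beside 1.69% and 2.49% of all windows. An unadjusted p under 0.05 was reached there by 3 higher and 1 lower, beside 8.39% and 9.18%. DESeq2 called 0 in each of these comparisons.

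Groups that do not overlap are common with 2 libraries each, so they were counted over all windows too. At 2 h, both libraries lay above both DMSO libraries in 5 of 15 members and below in 2, beside 19.9% and 20.1% of all windows. At 4 h the counts were 4 above and 2 below, beside 21.4% and 21.5%. At 24 h they were 6 above and 2 below, beside 25% and 25.1%. FGFR1 windows 2 and 3 were above, and PDGFRA window 4 below, at all 3 times. How many of all windows kept to one side at all 3 times was not counted. The 3 comparisons use the same DMSO libraries, so they are not independent.

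Windows within about 13 kb of each other were also joined and their counts summed, which gives more counts per test. The 15 members fell into 9 such regions, of which 4 were at MET, 2 at PDGFRA and 3 at FGFR1. Of 26144 regions tested, the 2 h test called 0.474% higher and 1.53% lower, the 4 h test 0.972% higher and 2% lower, and the 24 h test 4% higher and 5.55% lower. Among the 9, 1 was called higher at 2 h, 1 at 4 h and 1 at 24 h, and 1 was called lower at 24 h. Between 24 h and 2 h, 1 of the 9 was called higher and 0 lower, beside 2.2% and 3.14% of all regions.

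The region called higher at each time was the FGFR1 region of windows 2 to 5, chr8:38287222-38300554, 13.332 kb long. It held 74.2 and 70.5 CPM at 2 h, 71.5 and 73.5 CPM at 4 h and 70.2 and 72.1 CPM at 24 h, against 52.8 and 52.6 CPM in DMSO. The treated libraries formed one tight group well above both DMSO libraries. Its log2 change was 0.45 (SE 0.10, adjusted p 0.00149) at 2 h, 0.46 (SE 0.10, adjusted p 0.000902) at 4 h and 0.43 (SE 0.10, adjusted p 0.000472) at 24 h by edgeR. The difference of 24 h from 2 h was -0.02 (SE 0.09, adjusted p 0.935), and that of 4 h from 2 h was 0.01 (SE 0.09, adjusted p 0.994). The calls at all 3 times held in each fit that left out 1 library, with a highest adjusted p of 0.0475, but DESeq2's Wald test gave adjusted p-values of 0.365, 0.194 and 0.0848 at the same fold changes. The bounds of the region follow from the joining distance alone.

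The PDGFRA region of windows 2 to 4, chr4:55083774-55099611, held 58.5 and 53.0 CPM at 2 h, 53.1 and 49.1 CPM at 4 h and 41.6 and 50.3 CPM at 24 h, against 55.1 and 59.4 CPM in DMSO. The libraries of 4 h and of 24 h lay below both DMSO libraries, and 24 h library A was the lowest of all. Its log2 change was -0.05 (SE 0.10, adjusted p 0.926), -0.17 (SE 0.11, adjusted p 0.53) and -0.33 (SE 0.11, adjusted p 0.03) at 2 h, 4 h and 24 h by edgeR. The 24 h call was lost without DMSO library A (adjusted p 0.0639), DMSO library B (adjusted p 0.284) or 24 h library A (adjusted p 0.501). The log2 change itself was -0.19 without 24 h library A and -0.46 without 24 h library B, so its size depended on which of these was kept.

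The MET region of windows 4 and 5, chr7:116442024-116443139, held 14.3 and 13.8 CPM at 2 h, 16.4 and 16.9 CPM at 4 h and 21.8 and 22.7 CPM at 24 h, against 14.8 and 17.0 CPM in DMSO. The 24 h libraries lay above all others. Against DMSO its log2 change at 24 h was 0.49 (SE 0.17), with an edgeR adjusted p of 0.0541, which just misses the threshold. Against 2 h it was 0.66 (SE 0.17, adjusted p 0.00646), and against 4 h it was 0.42 (SE 0.17, adjusted p 0.197). The call against 2 h was lost without 2 h library B (adjusted p 0.122) or 24 h library B (adjusted p 0.0649). The region that holds FGFR1 window 1 includes the row just outside the range and had log2 changes of 0.00, 0.01 and -0.03.

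A share within one range does not depend on how libraries are scaled. Of all FGFR1 counts, the region of windows 2 to 5 took 57.1% and 54.3% in the libraries of 2 h, 56.6% and 57.4% in those of 4 h and 52.6% and 55.6% in those of 24 h, against 47.9% and 46.7% in DMSO. The shares of all treated libraries were above those of both DMSO libraries. The exact 95% binomial interval of DMSO library A, from 42.9% to 53.0%, reached the 24 h value of library A. The interval of every treated library began below the upper end of that DMSO interval. The interval of DMSO library B, from 41.7% to 51.8%, held no treated value. The intervals of 2 h library A and both 4 h libraries began above its upper end, and the other treated intervals began below it. Of all MET counts, windows 4 and 5 took 12.2% and 13.2% in the libraries of 2 h, 15.1% and 14.4% in those of 4 h and 18.5% and 18.6% in those of 24 h, against 12.6% and 15.1% in DMSO. Only the 24 h pair lay above both DMSO libraries. The interval of DMSO library B, from 11.7% to 19.0%, held both 24 h values. That of DMSO library A, from 9.5% to 16.1%, held neither. Of all PDGFRA counts, windows 2 to 4 took 87.6% and 87.1% in the libraries of 2 h, 82.6% and 82.2% in those of 4 h and 75.3% and 84.0% in those of 24 h, against 89.0% and 83.7% in DMSO. There both 4 h libraries lay below both DMSO libraries, and the 24 h libraries straddled one of them. These intervals cover counting error only.

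**Figure D4:**
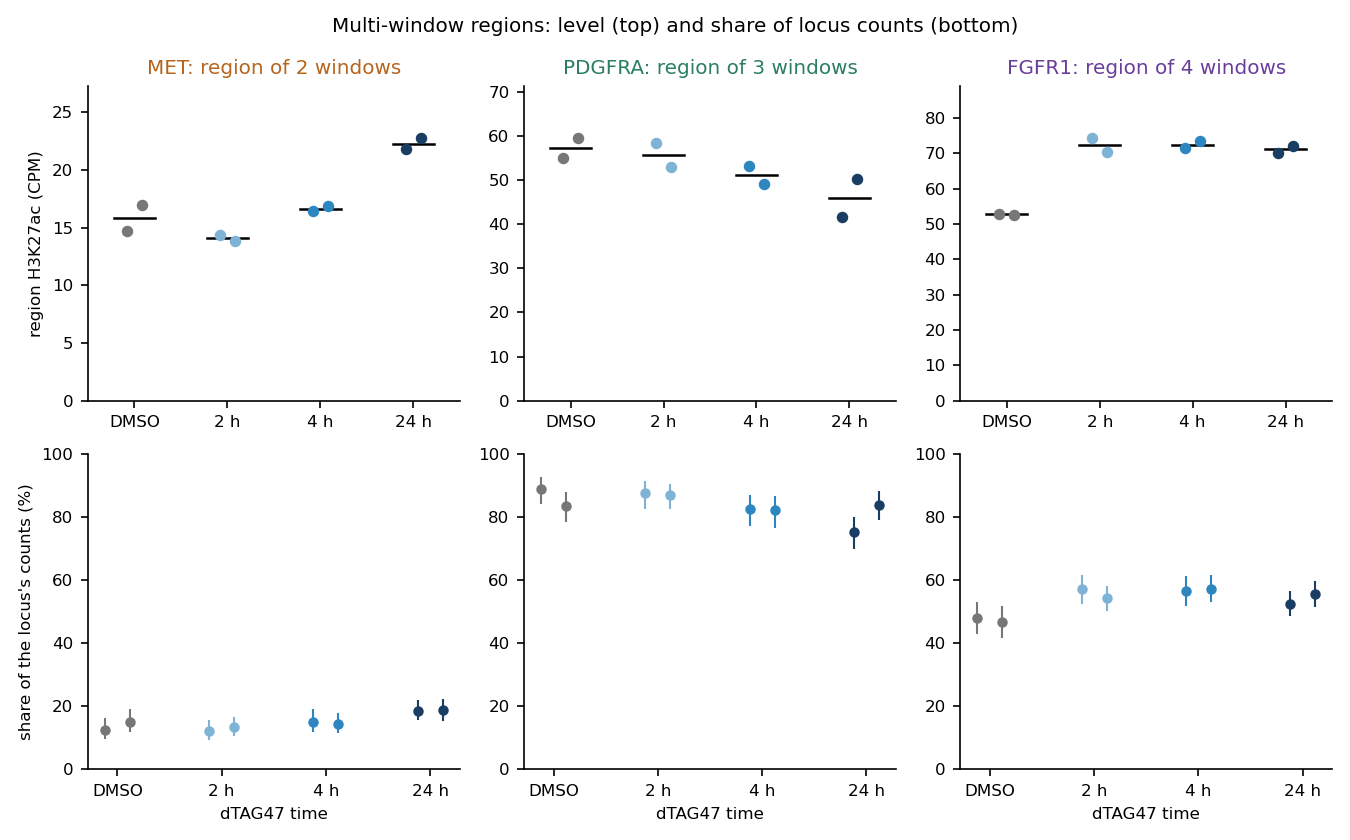
Top row: H3K27ac (CPM after TMM scaling) of the joined regions of MET windows 4 and 5, PDGFRA windows 2 to 4 and FGFR1 windows 2 to 5, by group (x axis); dots are libraries and lines means of 2. Bottom row: the region's share of all counts in its range (%), with exact 95% binomial intervals; the FGFR1 region is higher in all 6 treated libraries than in both DMSO libraries.

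Windows in the surrounding 1 Mb on either side were counted for comparison. Around FGFR1, 37 further windows had a median log2 change of 0.02, -0.01 and -0.03 at 2 h, 4 h and 24 h, beside 0.30, 0.20 and 0.23 for the 6 FGFR1 windows, and at 24 h 1 was called higher and 3 lower. Around PDGFRA, 27 further windows had a median of -0.08 at 24 h, beside -0.27 for the 4 members, with 0 called higher and 2 lower. Around MET, 20 further windows had a median of -0.15 at 24 h, beside 0.31 for the 5 members, with 1 called higher and 7 lower. The strongest member, MET window 1, changed by -0.05 at 24 h, and the sum of the 5 had a log2 ratio of 0.06 to DMSO. No difference between members and surrounding windows was tested.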

How the data were processed

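The data were H3K27ac ChIP-seq counts for 8 libraries of Rh30 cells, 2 per group. The deposited table holds raw read counts per window, per the file headers and the whole-number values, over one window set for all libraries. Per the submitters' processing notes, the tools were Trimmomatic 0.32 and Bowtie2, with MACS2, DiffBind and DESeq2 also listed, and hg19 and dm3 are the builds named, with no roles. Spike-in use is not stated, and no Drosophila reads were used. Input libraries were not analysed here. Coordinates are as deposited, and whether starts count from 0 or 1 is not stated. Per the labels' protocols, the antibody was Abcam ab4729 and libraries were made with NEBNext Ultra II.

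Tests ran in edgeR 4.0.16 under R 4.3.3, or DESeq2 1.42.0 as an alternative, with a minimum count of 10 and minimum total of 15, TMM scaling and one robust quasi-likelihood fit of the 4 groups. This kept 41791 windows and left out 276. The common dispersion was 0.00108 (biological coefficient of variation 3.29%) and the median prior degrees of freedom were 182. Errors therefore rest mostly on counting error and the spread shared by all windows, and little on a window's own libraries. Intervals of log2 changes are 95% normal intervals. Columns carry letters and labels carry numbers, so libraries are known by group only. Replicate counts differed beyond sampling noise, with chi-square per degree of freedom between 1.06 and 1.21. The procedure was also run on simulated counts. These had one dispersion for all windows, so they cannot show how calls behave where the spread differs between windows.

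Members and lists were chosen with earlier results of these data known. Windows described in full are those called against DMSO at any time, the highest in each range and, in a range with no call, the one with the largest change at 24 h. Scaling, filter, test, block, stitching and left-out libraries were varied. A list of other pathway genes could not be counted, since the table names no genes and no hg19 annotation was used here.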

Additional observations from a re-analysis of the deposited data

Results flagged for a closer look

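A direct test between treated times put 2 overlapping results on this list. MET window 4 was higher at 24 h than at 2 h by 0.76 on the log2 scale (edgeR adjusted p 0.0411), a call lost when any 1 of the 4 libraries compared was left out. The joined region of MET windows 4 and 5, which includes that window, was higher at 24 h than at 2 h by 0.66 (edgeR adjusted p 0.00646). The region's call was lost without 2 h library B or 24 h library B (log2 change 0.63 in each fit). With DESeq2's Wald test neither the window (adjusted p 0.958) nor the region (adjusted p 0.505) was called.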

How the results depend on the processing

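With DESeq2's Wald test and with glmTreat against a 1.2-fold change, the counts of windows called higher at 4 h and 24 h, lower at 24 h and higher between 24 h and 2 h were each 0, as were the counts of regions called higher at 2 h, 4 h and 24 h, lower at 24 h and higher between 24 h and 2 h. Total-count scaling left 0 windows lower at 24 h and gave 2 regions higher at 24 h, the added one being MET windows 4 and 5 (adjusted p 0.0442). Offsets that follow abundance left 0 windows higher between 24 h and 2 h, and joining within 5 kb left 0 regions lower at 24 h. Other scalings, glmTreat and the block were added for regions after seeing the data. The median log2 change of all windows stayed within 0.023 of 0 under each scaling.

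Without 1 library at a time, the count of windows ranged from 0 to 0 higher at 4 h, from 0 to 1 higher and from 0 to 1 lower at 24 h, and from 0 to 0 higher between 24 h and 2 h. For regions it ranged from 0 to 1 lower at 24 h, and from 0 to 1 higher and from 0 to 1 lower between 24 h and 2 h.

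Sign changes touched small, uncalled differences. The 24 h to 2 h difference became 0.0076 for FGFR1 window 2 with abundance offsets, and for the FGFR1 region 0.027 with 5 kb joining and 0.0046 with abundance offsets. With 1 library left out, log2 changes against DMSO ranged from -0.16 to 0.077, from -0.24 to 0.00058 and from -0.17 to 0.070 for MET window 1 at 2 h, 4 h and 24 h. They ranged from -0.22 to 0.18 for MET window 4 at 4 h, from -0.31 to 0.077 and from -0.050 to 0.14 for FGFR1 window 6 at 2 h and 24 h, and from -0.36 to 0.14 for PDGFRA window 3 at 4 h. For regions they ranged from -0.027 to 0.18 for MET at 4 h and from -0.11 to 0.034 for PDGFRA at 2 h. Between 24 h and 2 h they ranged from -0.059 to 0.29 for FGFR1 window 3 and from -0.066 to 0.012 for the FGFR1 region. The cause was not tested.

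With the column letter as a replicate block, calls were as without it, at 1 window higher at 4 h and 2 higher and 1 lower at 24 h, with adjusted p 0.00655 for FGFR1 window 3. Nothing in the labels says that the letters pair libraries. The members held as few as 21 counts in a library, and the weakest windows had standard errors up to 0.30 on the log2 scale.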
